A study of Mus musculus with 6 samples.

Results

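The 35 genes described here make, sense, carry and remove cholesterol, and all 35 were found by symbol among the 53465 genes measured by RNA sequencing in the mouse right hippocampus. They were grouped by role into 18 enzymes of synthesis, 8 genes of sterol sensing and transcriptional control, 7 carriers, receptors and transporters and 2 genes of removal and storage. Both groups were male C57BL/6J mice, of an age that the sources used here do not state. The 3 Sham libraries were compared with 3 libraries labelled tMCAO, for transient middle cerebral artery occlusion. In this stroke model a silicone-coated filament was passed into the right internal carotid artery under isoflurane and withdrawn after 50 min, so blood flow returned. The sources used here do not state what the sham operation involved or how long after occlusion the tissue was taken. Mice were perfused with saline under chloral hydrate before the hippocampus was removed. Exercise, named in the series title, was not analysed here.

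Cholesterol does not cross the blood-brain barrier in lipoproteins, so the brain makes its own from acetyl-CoA through mevalonate, squalene and lanosterol. When sterols are scarce in the endoplasmic reticulum, SCAP escorts SREBP-2 to the Golgi, where proteases free a transcription factor that turns on the synthesis genes. When sterols are plentiful, INSIG proteins hold SCAP back and oxysterols activate the liver X receptors (LXR), which turn on the exporters ABCA1 and ABCG1. Astrocytes load the exported cholesterol onto apolipoprotein E for neurons, and neurons dispose of excess as 24S-hydroxycholesterol, the product of CYP46A1.

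Levels are given as FPKM, a value scaled for gene length and library depth, as deposited, so genes of different length share one scale. Whole reads recovered from the FPKM came to between 39026963 and 46277553 per Sham library and between 57796364 and 66157173 per tMCAO library. The hippocampus markers were present in every library, with a summed FPKM of 98.8 to 119 in Sham and 102 to 129 in tMCAO, and none of the 6 was at 0. A pair of libraries stood apart from the others of their group. Striatal neuron markers summed to 334 FPKM in Sham 2 and 301 in tMCAO 3, against 46.8 to 75.1 in the others. Choroid plexus markers summed to 24.4 in Sham 2 and 8.9 in tMCAO 3, against 352 to 728 in the others. Reactive astrocyte markers were higher in tMCAO, with 3 of 3 past the threshold of a limma adjusted p below 0.05. At this threshold 8.93% of all tested genes were higher and 7.28% lower in tMCAO. The summed FPKM of the reactive astrocyte markers went from a Sham range of 52.4 to 83.2 to one of 157 to 306. Microglial markers were lower (4 of 6, from 84.2 to 97.0 down to 54.7 to 68.7), and so were those of oligodendrocyte precursors (3 of 4, from 22.6 to 24.7 down to 14.5 to 19.4). Neutrophil markers summed to at most 0.359 FPKM in a Sham library and to between 1.72 and 31.3 in the tMCAO libraries, with 0 of the 2 tested genes past the threshold and each of the 4 at 0 in at least 1 library. In bulk tissue, fewer cells of a type and less RNA per cell cannot be told apart.

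Promoter windows are shown for 3 genes whose letters bear on the roles above: the synthesis enzyme Hmgcs1, the control gene Srebf2 and the exporter Abca1. Each window is from RefSeq (GRCm38.p6), runs from 250 bases before to 50 after the annotated start, and reads 5′ to 3′ on the gene's strand. Hmgcs1 is at chr13:119690101-119690400 (plus), Srebf2 at chr15:82147019-82147318 (plus) and Abca1 at chr4:53159846-53160145 (minus). Capitals mark the sterol regulatory element TCACNCCAC, which SREBP binds, and the NF-Y box CCAAT, each on either strand, so that a box on the other strand reads ATTGG.
Hmgcs1: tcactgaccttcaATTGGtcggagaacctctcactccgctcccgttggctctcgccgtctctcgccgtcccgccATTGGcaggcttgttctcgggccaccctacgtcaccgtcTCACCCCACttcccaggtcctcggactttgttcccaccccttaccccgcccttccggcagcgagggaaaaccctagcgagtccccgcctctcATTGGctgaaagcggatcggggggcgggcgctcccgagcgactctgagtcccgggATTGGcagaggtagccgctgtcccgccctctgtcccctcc
Srebf2: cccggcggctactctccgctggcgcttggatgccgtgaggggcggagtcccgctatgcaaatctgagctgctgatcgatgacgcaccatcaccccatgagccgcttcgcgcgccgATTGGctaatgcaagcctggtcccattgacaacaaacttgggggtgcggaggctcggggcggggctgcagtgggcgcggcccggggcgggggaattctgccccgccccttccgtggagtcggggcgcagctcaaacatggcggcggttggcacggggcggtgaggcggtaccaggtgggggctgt
Abca1: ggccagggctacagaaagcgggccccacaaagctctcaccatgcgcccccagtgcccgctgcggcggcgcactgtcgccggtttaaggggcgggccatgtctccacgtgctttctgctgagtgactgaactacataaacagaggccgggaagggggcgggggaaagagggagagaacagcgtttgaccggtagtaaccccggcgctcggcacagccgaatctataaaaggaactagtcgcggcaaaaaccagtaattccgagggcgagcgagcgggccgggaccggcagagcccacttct
The Hmgcs1 window held 1 sterol element and 4 NF-Y boxes. The Srebf2 window held 1 NF-Y box, and neither motif was found in the Abca1 window. Of the 35 genes, 29 had at least 1 window. An exact match to this form of the sterol element was found in 1 of these 29 genes, Hmgcs1, and in 1.24% of all 32851 windows of this length. An NF-Y box was found in 14 of the 15 synthesis enzymes with a window, all but Acat2, and in 41.1% of all 27025 genes with a window. Among genes with a single window it was found in 12 of 13 synthesis enzymes and in 38.2% of 22862 genes. It was found in 0 of the 4 carriers, receptors and transporters with a window. The GC box GGGCGG, which Sp1 binds, was in 24 of the 29 genes and in 35.66% of all windows. Since a gene can have more than 1 window, these are unlike measures, as they are for the sterol element. No exact match to the LXR element, AGGTCA followed after NNNN by AGGTCA or AGTTCA, was found in the 29 genes. Its 2 forms were in 0.02% and 0.0% of all windows, too rare for their absence here to be informative. A match is a run of letters and not a shown binding site. Only exact matches were counted for every motif, so sites with other letters inside these windows, also in those printed, were missed. A missing match also says nothing of the factor outside these windows.

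Srebf2 also carries, in an intron, the gene of miR-33, a microRNA known to repress Abca1. The mature miR-33-5p is encoded at chr15:82198127-82198147 (plus), and its seed, bases 2 to 8, is in capitals.
mmu-miR-33-5p: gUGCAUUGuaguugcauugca
The letters that pair with this seed, CAATGCA, were found in the 3′ untranslated end of 3 of the 35 genes (8.6%) and of 6.5% of 21045 protein-coding genes, with median ends of 847 and 799 bases. The matched runs, read from GRCm38 on the gene's strand with CAATGCA in capitals, lie at chr4:53033783-53033812 for Abca1, chr17:31114998-31115022 for Abcg1 and chrX:72958170-72958184 for Nsdhl.
Abca1: tattCAATGCAATGCActtCAATGCAacga
Abcg1: aacgCAATGCAacgCAATGCAgaca
Nsdhl: ggtgCAATGCAatgg
Abca1 held 3 such matches, 2 of which overlap, Abcg1 held 2 and Nsdhl 1. Mature miR-33 was not measured here.

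Of the 34 genes that passed the filter of a mean of at least 0.5 FPKM, 3 changed in tMCAO. Apod and Abca1 rose, Srebf2 fell, and the other 31 did not pass the threshold, an adjusted p below 0.05 in limma over all 17561 tested genes. The share of 8.82% compares with 16.2% of all tested genes, of which 8.93% rose and 7.28% fell, so the count of changed genes was no higher here than among all genes. The 3 libraries of each group did not overlap in 12 of the 34 genes (35.3%), 6 with tMCAO above and 6 with tMCAO below, against 43.4% of all tested genes (23.1% above and 20.3% below). The median log2 fold change was -0.10 for the 34 genes and 0.00 for all tested genes. An exact permutation test over the 20 assignments of the libraries gave its smallest p, 0.10, for each of the 12. This follows from the lack of overlap and adds nothing to it. Because no label ties each library to its own mouse, the p-values speak only of the spread among these 6 libraries.

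**Figure D1:**
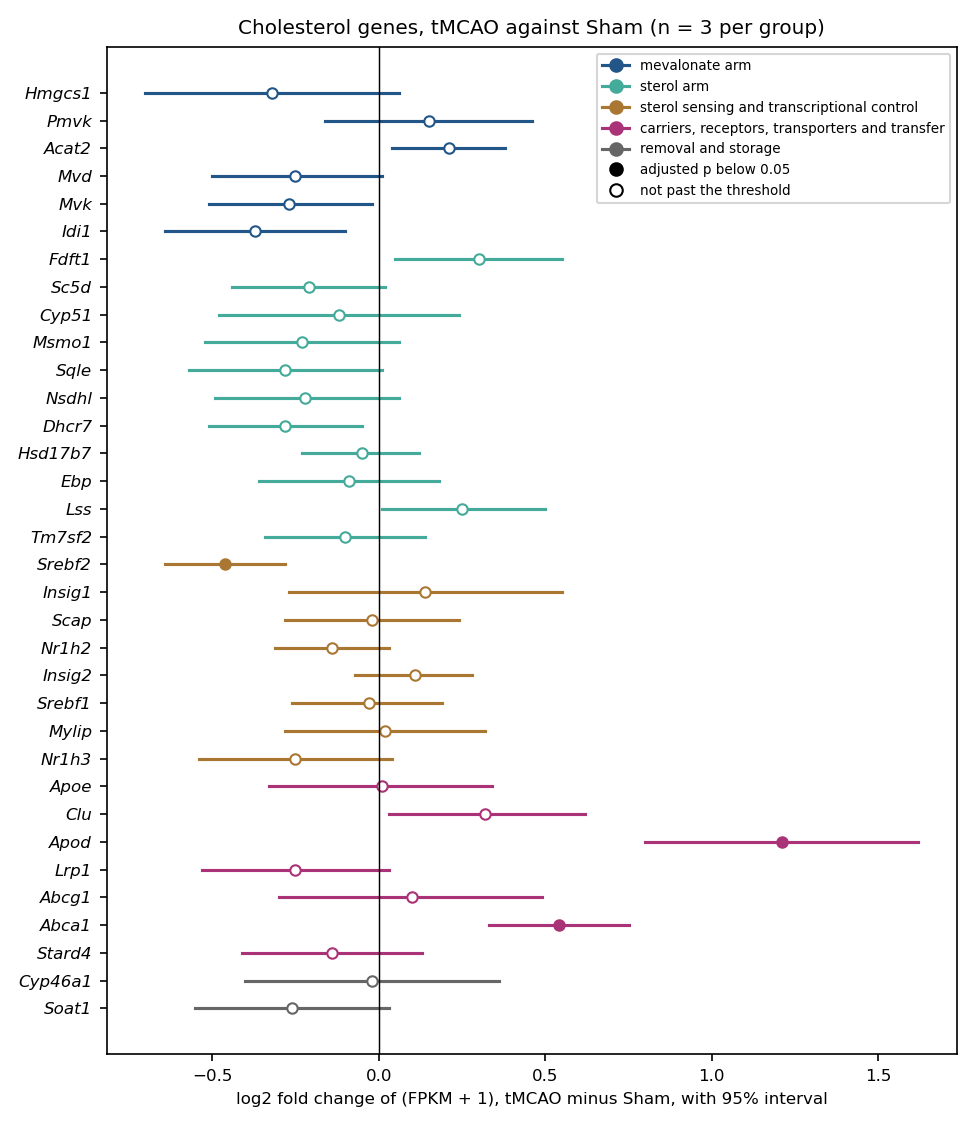
Log2 fold change of FPKM + 1 (x axis, tMCAO minus Sham, 95% intervals, 3 libraries per group) for the 34 tested cholesterol genes, coloured by role. Filled points mark Srebf2 below 0 and Apod and Abca1 above 0, the genes with an adjusted p below 0.05, and the open points lie between -0.37 and 0.32.

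The first enzymes of synthesis build isopentenyl diphosphate from acetyl-CoA. Hmgcs1, the synthase that makes HMG-CoA, had the highest level of all 18 enzymes. Its level was 50.9, 48.9 and 50.8 FPKM in Sham 1, 2 and 3 and 52.5, 36.5 and 33.2 FPKM in tMCAO 1, 2 and 3. The level in tMCAO 1 was above all 3 Sham libraries and the levels in tMCAO 2 and 3 were below them, so the groups overlapped. The mean was 50.2 ± 1.15 FPKM (SD, n = 3) in Sham and 40.7 ± 10.3 in tMCAO, a change of -0.32 on the log2 scale (SE 0.16, limma adjusted p = 0.19). Of its exon bases, 12.1% overlap Gm48342 on the opposite strand. Pmvk, the phosphomevalonate kinase, was at 15.6, 13.7 and 13.8 FPKM in Sham and at 19.7, 15 and 14 in tMCAO. Its tMCAO 1 value was the highest of the 6 and the groups overlapped, with a change of 0.15 on the log2 scale (SE 0.13, adjusted p = 0.43).

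Idi1 and Acat2, chosen after their values were seen, stand at the ends of the mevalonate arm's range. Idi1, the isomerase of isopentenyl diphosphate, was at 4.59, 4.72 and 4.72 FPKM in Sham and at 4.17, 3.15 and 2.93 in tMCAO. All 3 tMCAO libraries were below all 3 Sham libraries, and the log2 fold change came to -0.37 (SE 0.11, limma adjusted p = 0.066). The authors' deposited table gives Idi1 an adjusted p of 0.037. The gene has 4 pseudogene copies with up to 100% identity, to which its reads could have been split, and 9.2% of its exon bases overlap Gm48574 on the opposite strand. Acat2, the thiolase that joins acetyl-CoA units, was at 10.9, 10.6 and 10.4 FPKM in Sham and at 13.3, 12.3 and 11.8 in tMCAO. Its groups did not overlap either, but in the opposite direction, with a change of 0.21 on the log2 scale (SE 0.07, adjusted p = 0.083). The sequence of Acat2 matches those of Acat3 and Tcp1, so its reads could be split as well. Mevalonate kinase, Mvk, had a mean of 5.49 ± 0.413 FPKM in Sham and 4.40 ± 0.605 in tMCAO, and its groups did not overlap (log2 fold change -0.27, adjusted p = 0.11). The decarboxylase Mvd had 7.43 ± 0.758 and 6.11 ± 0.704 FPKM, with groups that overlapped (log2 fold change -0.25, adjusted p = 0.15). Fdps, which makes farnesyl diphosphate, fell under the filter at 0.246 ± 0.0436 FPKM in Sham and 0.314 ± 0.0798 in tMCAO, or 33 to 97 reads per library. It matches 6 pseudogenes with up to 98.9% identity over up to 1066 bases, and these together had a mean of 2.86 FPKM, so the level of Fdps is uncertain.

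The sterol arm runs from farnesyl diphosphate through squalene and lanosterol to cholesterol. Fdft1, the squalene synthase, was at 21.0, 21.6 and 21.9 FPKM in Sham and at 29.3, 22.6 and 28.9 in tMCAO. All 3 tMCAO libraries were above all 3 Sham libraries, tMCAO 2 by little. The log2 fold change came to 0.30 (SE 0.11, limma adjusted p = 0.093). Without tMCAO 2 Fdft1 passed the threshold as higher (adjusted p = 0.026) and Soat1, which esterifies cholesterol, as lower, where 12.4% of all tested genes passed it. Of the exon bases of Fdft1, 18.3% overlap Ctsb on the opposite strand. The strand setting of the counts is not given, so reads of Fdft1 and Ctsb cannot be told apart there. Sc5d, which desaturates lathosterol, was at 14.6, 13.2 and 15.3 FPKM in Sham and at 13.6, 12.4 and 10.9 in tMCAO. The groups overlapped through tMCAO 1, and the log2 fold change was -0.21 (SE 0.10, adjusted p = 0.18).

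Lss and Dhcr7, also chosen after their values were seen, again had groups that did not overlap, in opposite directions. Lss, which closes squalene epoxide to lanosterol, was at 3.94, 4.19 and 3.57 FPKM in Sham and at 4.91, 4.21 and 5.44 in tMCAO. The lowest tMCAO value was just above the highest Sham value, and the log2 fold change was 0.25 (SE 0.10, adjusted p = 0.13). Dhcr7, the reductase of the last step of one branch, was at 6.27, 5.91 and 5.63 FPKM in Sham and at 5.32, 4.78 and 4.12 in tMCAO. Its log2 fold change was -0.28 (SE 0.10, adjusted p = 0.092). Sqle, the squalene epoxidase and a rate-limiting step, had a mean of 10.2 ± 0.317 FPKM in Sham and 8.29 ± 1.55 in tMCAO (log2 fold change -0.28, adjusted p = 0.15). The demethylating enzymes that follow lanosterol were Cyp51 (12.5 ± 0.861 and 11.6 ± 2.63 FPKM), Msmo1 (11.5 ± 0.372 and 9.73 ± 1.80) and Nsdhl (7.87 ± 0.478 and 6.68 ± 1.16). The remaining reductases and the isomerase were Tm7sf2 (4.11 ± 0.0844 and 3.79 ± 0.569 FPKM), Hsd17b7 (4.90 ± 0.233 and 4.68 ± 0.189) and Ebp (4.94 ± 0.233 and 4.62 ± 0.778). In all 6, the groups overlapped and the log2 fold changes lay between -0.23 and -0.05.

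Of the 17 tested synthesis enzymes, none passed the threshold in limma, against 16.2% of all tested genes. An unadjusted p below 0.05 was found in 6 of the 17 and in 6317 of the 17561 tested genes, a similar share. The log2 fold change was below 0 in 13 and above 0 in 4 (Acat2, Pmvk, Fdft1 and Lss), with a median of -0.21. Over all tested genes it was below 0 in 8777 and above 0 in 8784. The medians of the mevalonate and sterol arms were -0.26 and -0.12.

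The 3 tMCAO libraries differed among themselves across the enzymes. The median log2 deviation of the 17 enzymes from the Sham mean was 0.01 in tMCAO 1, -0.19 in tMCAO 2 and -0.37 in tMCAO 3, while the 3 Sham libraries lay between -0.02 and 0.03. Over all tested genes these medians lay between -0.01 and 0.02. Within the tMCAO group, tMCAO 1 was highest in 14 of 17 enzymes (82.4%, against 35.0% of all tested genes) and tMCAO 3 lowest in 13 (76.5%, against 36.2%). In the mevalonate arm this held for 6 of 6 enzymes at both ends. Oligodendrocytes make much cholesterol for myelin, and the sum of their 12 markers had the same order. It was 1451 FPKM in tMCAO 1, 1049 in tMCAO 2 and 727 in tMCAO 3, where the Sham libraries lay between 901 and 1109. The most abundant markers weigh most in such a sum, and the order of each marker was not examined. The sums of reactive astrocyte (306, 282 and 157 FPKM), choroid plexus (589, 352 and 8.9) and neutrophil markers (31.3, 3.49 and 1.72) had this order too. So did the sum of pericyte and smooth muscle markers (37.1, 36.6 and 27.4). The sums of neuron (974, 1019 and 1418) and hippocampus markers (102, 115 and 129) had the reverse order. Of the 12 oligodendrocyte markers, 0 rose and 2 fell (Ugt8a and Aspa), none was at 0, and their median log2 fold change was -0.38. The part of these cell types in the order of the enzymes was not tested, and tMCAO 3 is also the library with high striatal and low choroid plexus markers. Without tMCAO 3, 11 of the 17 enzymes were below 0 and their median was -0.13, and without Sham 2 and tMCAO 3 together 12 were below 0 with a median of -0.14. Without tMCAO 1, the median was -0.28, and Hmgcs1 (adjusted p = 0.025), Idi1 (0.027) and Sqle passed the threshold as lower, where 8.67% of all tested genes passed it in either direction.

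**Figure D2:**
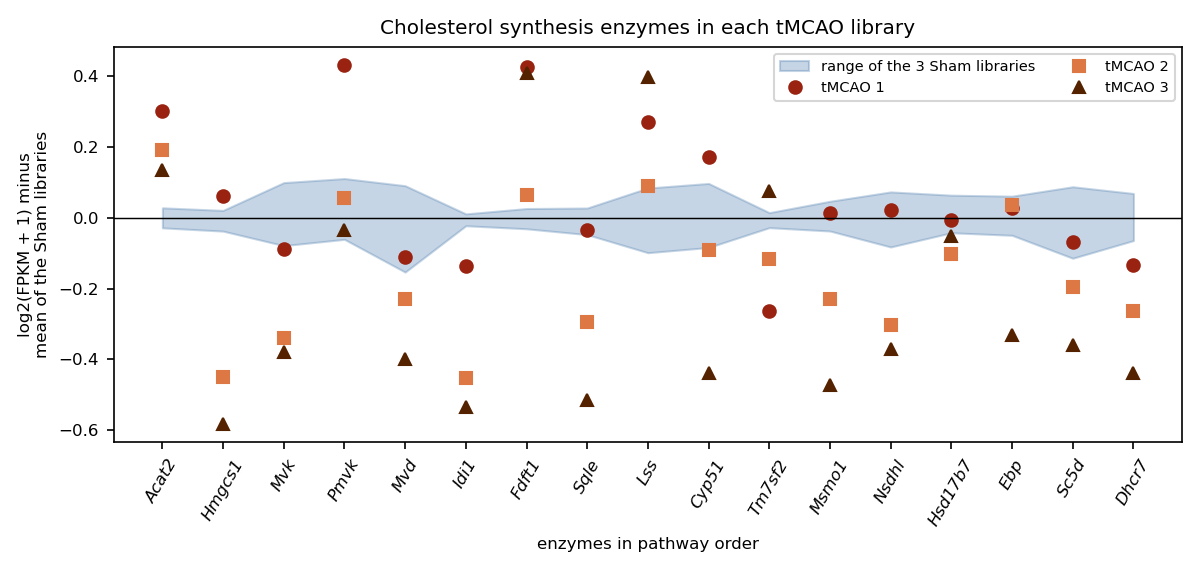
Log2(FPKM + 1) of the 17 tested synthesis enzymes in each tMCAO library, minus the mean of the 3 Sham libraries (y axis), in pathway order (x axis); the band is the range of the Sham libraries. Triangles (tMCAO 3, median -0.37) lie below circles (tMCAO 1, median 0.01) for most enzymes, and Fdft1, Lss and Acat2 lie above the band in all 3 libraries.

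Srebf2, which encodes SREBP-2, the main activator of the synthesis genes, fell. It was at 39.0, 40.3 and 38.3 FPKM in Sham and at 31.0, 26.8 and 27.2 in tMCAO. All 3 tMCAO libraries were well below all 3 Sham libraries, and each group was tight. The mean fell from 39.2 ± 1.01 to 28.3 ± 2.30 FPKM, a change of -0.46 on the log2 scale (SE 0.08, 95% interval -0.64 to -0.28, limma adjusted p = 0.017), or 0.728 times the Sham level on the FPKM + 1 scale. The authors' deposited table gives 0.47 for Sham over tMCAO (adjusted p = 0.00031). The length implied by its FPKM, 4989 bases, is shorter than the 7184 exon bases of GENCODE M21, so the gene model behind its FPKM differs from this one. Leaving out Sham 1, 2 or 3 gave an adjusted p of 0.077, 0.065 or 0.079, while the log2 fold change was -0.46, -0.44 or -0.47. The same omissions cut the calls over all genes to between 0.427% and 2.39%.

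Srebf1, whose SREBP-1 products act mostly on fatty acid genes, was at 10.0, 10.0 and 9.23 FPKM in Sham and at 8.42, 10.8 and 9.42 in tMCAO. The groups overlapped, with a change of -0.03 on the log2 scale (SE 0.10, 95% interval -0.26 to 0.19, adjusted p = 0.82). The difference between the changes of Srebf2 and Srebf1 was not tested. Insig1, which retains SCAP and is itself a target of SREBP, was at 18.1, 18.6 and 18 FPKM in Sham and at 27.1, 19.0 and 15.9 in tMCAO. The Sham libraries were close together, while tMCAO 1 was above and tMCAO 3 below all of them, the order seen in the synthesis enzymes. The log2 fold change was 0.14 (SE 0.17, 95% interval -0.27 to 0.55, adjusted p = 0.60). Insig2, its relative, had means of 11.5 ± 0.359 and 12.4 ± 0.830 FPKM (log2 fold change 0.11, adjusted p = 0.33), and Scap, the escort, had 12.3 ± 0.209 and 12.1 ± 1.85. Among the LXR genes, Nr1h2 (LXR beta) had 12.7 ± 0.844 and 11.4 ± 0.347 FPKM with groups that did not overlap (log2 fold change -0.14, adjusted p = 0.21). Nr1h3 (LXR alpha) was less abundant than Nr1h2, at 1.22 ± 0.114 and 0.877 ± 0.288 FPKM from 100 to 178 reads per library (log2 fold change -0.25, adjusted p = 0.19). Mylip, an LXR target that marks lipoprotein receptors for degradation, had 4.76 ± 0.702 and 4.81 ± 0.677 FPKM.

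**Figure D3:**
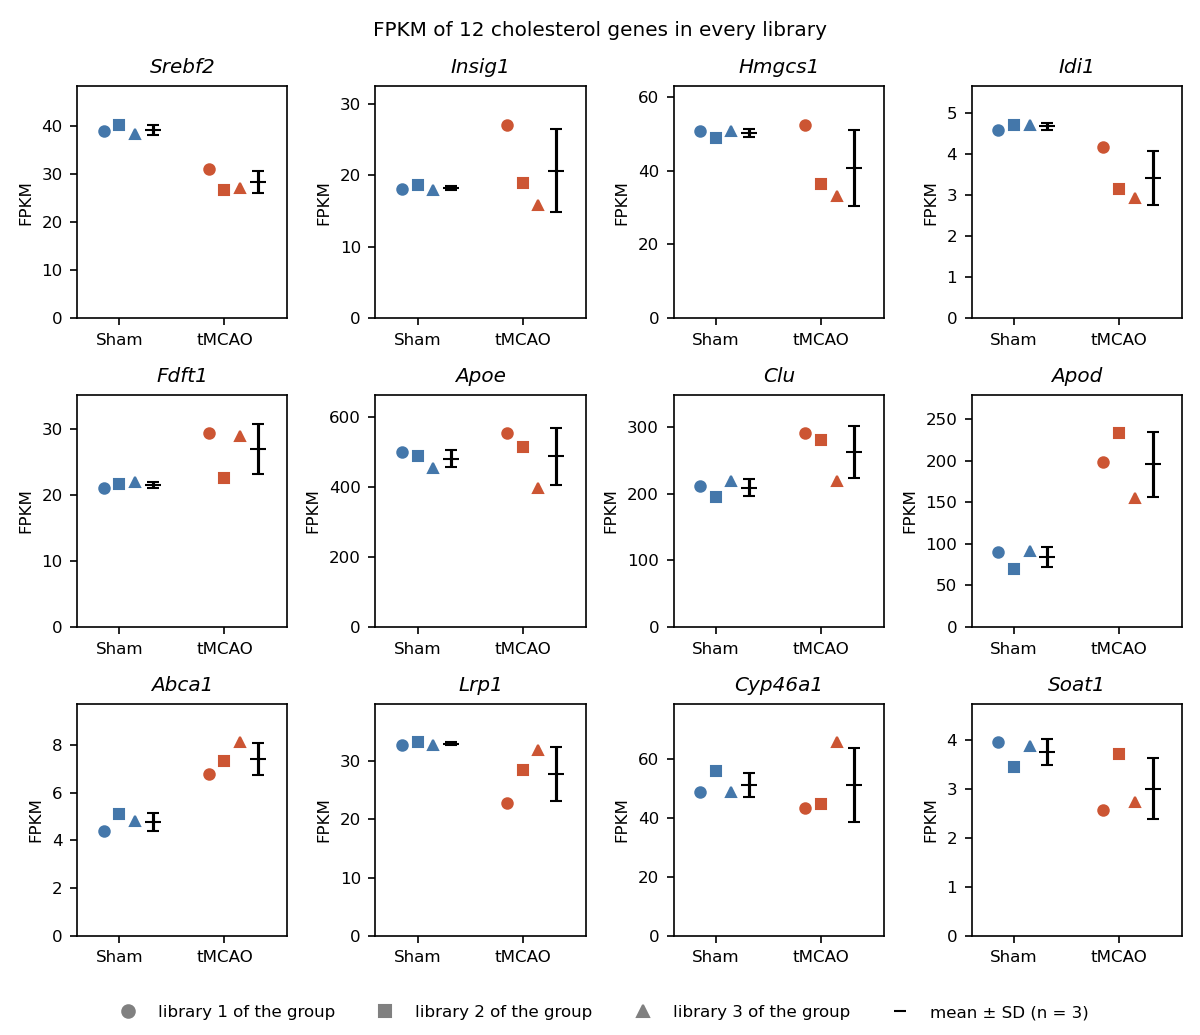
FPKM (y axes, from 0) of 12 cholesterol genes in each Sham and tMCAO library, with the mean and SD of 3 libraries beside the points. Srebf2, Idi1 and Lrp1 lie lower and Apod, Abca1 and Fdft1 higher in all 3 tMCAO libraries, Lrp1 in tMCAO 3 by little. Insig1, Hmgcs1 and Apoe spread to both sides of the Sham values.

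The largest change of the 34 genes was in Apod, which encodes apolipoprotein D, a lipocalin that binds arachidonic acid and other small lipids. Its level was 90.2, 69.8 and 91.0 FPKM in Sham and 199, 233 and 155 FPKM in tMCAO. Every tMCAO library was above every Sham library, and Sham 2 and tMCAO 3, the pair that stood apart, were the lowest of their groups. The mean rose from 83.7 ± 12.0 to 196 ± 39.4 FPKM, a change of 1.21 on the log2 scale (SE 0.17, limma adjusted p = 0.013), or 2.31-fold with a 95% interval of 1.74 to 3.06. The authors' deposited table gives -1.23 for Sham over tMCAO (adjusted p = 5.3e-10). The call was lost without Sham 1 (adjusted p = 0.054) and without Sham 3 (0.058), with a log2 fold change of 1.27 in both. Of all tested genes, 0.706% and 0.427% passed the threshold in these 2 settings. Without Sham 2 and tMCAO 3 together Apod, Abca1 and Srebf2 kept their calls and Clu gained one, where 12.1% of all tested genes passed the threshold. The part of the higher reactive astrocyte markers in the rise of Apod was not tested.

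Abca1, the exporter that loads cholesterol and phospholipid onto apolipoproteins, also rose. Its level was 4.38, 5.11 and 4.82 FPKM in Sham and 6.79, 7.31 and 8.11 FPKM in tMCAO. The groups did not overlap, and the highest value was in tMCAO 3. The mean rose from 4.77 ± 0.369 to 7.40 ± 0.662 FPKM, a change of 0.54 on the log2 scale (SE 0.09, limma adjusted p = 0.017), or 1.45-fold with a 95% interval of 1.25 to 1.69. In the authors' deposited table the value is -0.63 for Sham over tMCAO (adjusted p = 1.3e-05). Leaving out Sham 1, 2 or 3 gave an adjusted p of 0.077, 0.053 or 0.080, with a log2 fold change of 0.49, 0.58 or 0.55. Of all tested genes, 0.706%, 2.39% or 0.427% passed the threshold in these settings. Abcg1, the exporter to particles that already carry lipid, was at 13.7, 15.7 and 14.4 FPKM in Sham and at 12.6, 14.6 and 20.7 in tMCAO. Only its tMCAO 3 value was above the Sham range, and the log2 fold change was 0.10 (SE 0.17, adjusted p = 0.70). As for Srebf2, the length implied by the FPKM of Abcg1, 4066 bases, is shorter than the 7298 exon bases of GENCODE M21.

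Apoe, the main cholesterol carrier between brain cells, had the highest level of the 35 genes. It was at 499, 489 and 453 FPKM in Sham and at 552, 512 and 395 in tMCAO. The tMCAO libraries lay on both sides of the Sham range, and the log2 fold change was 0.01 (SE 0.14, 95% interval -0.33 to 0.34, limma adjusted p = 0.98). Astrocyte markers summed to 551 to 579 FPKM in Sham and to 580, 594 and 522 in tMCAO 1, 2 and 3, with 1 of 8 higher, 1 lower and none at 0, and their part in the values of Apoe was not tested. Clu, which encodes another apolipoprotein of astrocytes, clusterin, was at 212, 195 and 220 FPKM in Sham and at 291, 281 and 219 in tMCAO. Here tMCAO 1 and 2 were above all Sham libraries while tMCAO 3 was among them, and the log2 fold change was 0.32 (SE 0.13, adjusted p = 0.12). Without tMCAO 3 Clu passed the threshold as higher (adjusted p = 0.018), as did Acat2, and Lrp1 passed it as lower, where 22.2% of all tested genes passed it. Clu also passed it as higher without Sham 2 and tMCAO 3 together (limma adjusted p = 0.039) and with library weights (0.023). Of all tested genes, 12.1% and 28% passed it in these 2 settings. Lrp1, a receptor that takes up apolipoprotein E, was at 32.9, 33.3 and 32.9 FPKM in Sham and at 22.9, 28.6 and 32 in tMCAO. All tMCAO libraries were below the narrow Sham range, tMCAO 3 by little, and the log2 fold change was -0.25 (SE 0.12, adjusted p = 0.17). Stard4, which carries cholesterol between membranes, had means of 5.05 ± 0.142 and 4.53 ± 0.834 FPKM (log2 fold change -0.14, adjusted p = 0.41). Of the 7 carriers, receptors and transporters 2 rose and 0 fell (28.6%, where 8.93% of all tested genes rose and 7.28% fell), with a median log2 fold change of 0.10.

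Cyp46a1, the neuronal hydroxylase that starts the removal of cholesterol from the brain, was at 48.6, 55.9 and 48.8 FPKM in Sham and at 43.4, 44.5 and 65.6 in tMCAO. Sham 2 and tMCAO 3 were the highest of their groups, as they were for the summed neuron markers (1214 and 1418 FPKM, against 974 to 1115 in the others). The log2 fold change was -0.02 (SE 0.16, 95% interval -0.40 to 0.36, limma adjusted p = 0.94). The part of the neuron markers in these values was not tested. Soat1, which esterifies cholesterol for storage, was at 3.95, 3.45 and 3.87 FPKM in Sham and at 2.56, 3.71 and 2.73 in tMCAO. The values of tMCAO 1 and 3 were below the Sham range and tMCAO 2 was within it, with a change of -0.26 on the log2 scale (SE 0.12, adjusted p = 0.17).

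In the authors' deposited table, 4 of the 35 genes have an adjusted p below 0.05 (Srebf2 and Idi1 lower, Apod and Abca1 higher in tMCAO), against 20.2% of its 22647 genes.

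Genes of neighbouring pathways were counted in 7 further lists, to be read against the 8.93% of all tested genes that rose and the 7.28% that fell. Of 11 genes that process or degrade SREBP and its regulators, 2 rose and 0 fell, a share of 18.2% close to the 16.2% of all tested genes, with a median log2 fold change of 0.04. They were Ufd1 (15.3 ± 0.507 to 20.9 ± 1.83 FPKM, log2 fold change 0.42, limma adjusted p = 0.022) and Vcp (53 ± 1.5 to 67.3 ± 3.56 FPKM, log2 fold change 0.34, adjusted p = 0.025). Vcp is an ATPase that, with its cofactor Ufd1, pulls proteins marked for degradation out of the endoplasmic reticulum membrane. Of 14 fatty acid synthesis genes, which SREBP-1 controls, 0 rose and 1 fell, the elongase Elovl6 (7.14%). It went from 11.5, 9.80 and 11.9 FPKM in Sham to 6.08, 7.68 and 5.66 in tMCAO, without overlap (log2 fold change -0.70, SE 0.12, adjusted p = 0.019). The median of this list was -0.07.

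Among 13 tested genes of 15 in a list of other lipoprotein receptors, carriers and transporters, 0 rose and 3 fell (23.1%, against 16.2% of all tested genes in either direction), and the median was -0.25. Pltp, the phospholipid transfer protein, went from 18.5, 19.2 and 15.6 FPKM in Sham to 11.0, 7.58 and 5.51 in tMCAO, without overlap. Its log2 fold change came to -1.10 (SE 0.21, limma adjusted p = 0.023), and 19.3% of its exon bases overlap Ctsa on the opposite strand. Vldlr and Lrp8, receptors of apolipoprotein E and reelin, went from 10.2 ± 0.244 to 8.29 ± 0.570 FPKM and from 10.5 ± 0.203 to 7.80 ± 1.22 FPKM (log2 fold changes -0.28 and -0.39, both adjusted p = 0.046). Lrp1 lay in the same direction and passed the threshold without tMCAO 3 but not with all 6 libraries.

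Of 6 tested genes of 7 in the oxysterol and bile acid list, 1 rose and 0 fell (16.7%). Ch25h, which makes 25-hydroxycholesterol, was at 0.507, 0.215 and 0.792 FPKM in Sham and at 3.14, 4.06 and 1.72 in tMCAO. The groups did not overlap, and the lowest library held 12 reads (log2 fold change 1.37, SE 0.25, adjusted p = 0.019, on a scale that understates changes at such levels). Of its exon bases, 11.5% overlap Gm26902 on the opposite strand. Of 14 genes of the isoprenoid branch from farnesyl diphosphate 1 rose, Nus1, a subunit of the dolichol-making transferase (17.4 ± 0.402 to 21.4 ± 1.34 FPKM, log2 fold change 0.28, adjusted p = 0.040), and 0 fell, a share of 7.14%. None of 13 genes of lysosomal cholesterol release and transfer between membranes and none of 6 LXR partners and other LXR targets passed the threshold in limma, with 2 and 2 at an unadjusted p below 0.05. Their medians were 0.03 and -0.02.

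None of the 8 changed genes of these lists changed direction under the alternatives run. All 8 calls were lost without Sham 1 and without Sham 3, and all but that of Elovl6 without Sham 2, with a limma adjusted p of at most 0.15 over all alternatives. Leaving out Sham 1, 2 or 3 also cut the share of all tested genes past the threshold from 16.2% to 0.706%, 2.39% or 0.427%. Leaving out tMCAO 1 ended the calls of Nus1, Vldlr and Ch25h, leaving out tMCAO 2 those of Pltp, Vldlr and Lrp8, and leaving out tMCAO 3 that of Lrp8. The call of Nus1 was also lost with equal sums of FPKM (adjusted p = 0.073) and with quantile normalization (0.057), and those of Vldlr and Lrp8 with no filter (0.051 and 0.052) and with eBayes without a trend (0.052 and 0.050). Without Sham 2 and tMCAO 3 together, Elovl6, Pltp and Ch25h kept their calls and the other 5 genes did not.

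**Figure D4:**
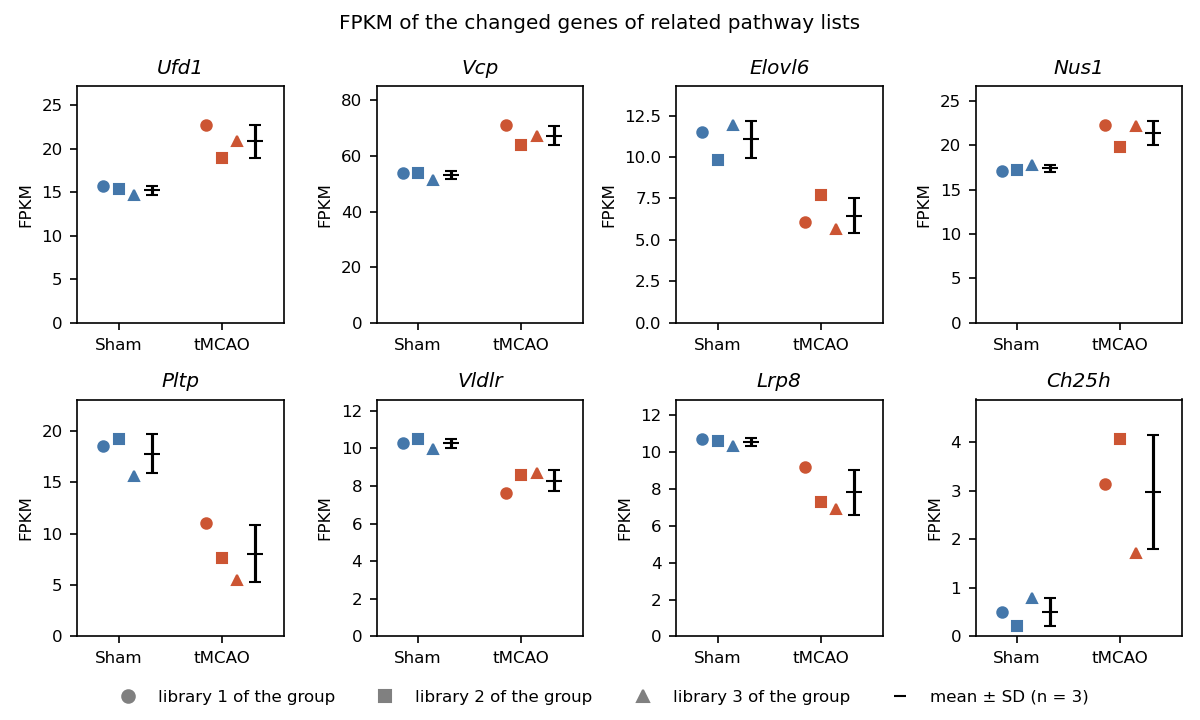
FPKM (y axes, from 0) of the 8 genes of related pathway lists with an adjusted p below 0.05, in each Sham and tMCAO library, with mean and SD of 3 libraries. Ufd1, Vcp, Nus1 and Ch25h lie higher and Elovl6, Pltp, Vldlr and Lrp8 lower in all 3 tMCAO libraries.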

How the data were processed

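Oligo-dT selected RNA of right hippocampus was made into libraries with a SMARTER mRNA kit, per the labels' protocols, and 3 Sham and 3 tMCAO libraries were compared. The deposited values are FPKM computed by the authors, with mm10 as the build per the submitters' processing notes. Which aligner, counting program and strand setting were used was not given in the sources read. The comparison table also holds the authors' deposited log2 fold changes (Sham over tMCAO) and p-values, from a test these sources do not name. The tMCAO columns name the group, so tMCAO 1 to 3 are column numbers. Reads were recovered with the exon length of GENCODE M21 where that gave whole reads in all libraries (20835 of 22647 genes). Otherwise the smallest whole length giving whole reads was used. Together these gave whole reads for 22646 genes (tolerance 0.001 reads). Of the cholesterol genes, the implied length differed from the annotation for Srebf2, Abcg1 and Tm7sf2 (3484 against 4403 bases). Of the changed genes of related lists, it differed for Ch25h (1350 against 1387 bases).

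limma 3.58.1 in R 4.3.3 (lmFit, eBayes with trend, two-sided, Benjamini-Hochberg) was run on log2(FPKM + 1), without rescaling, for the 17561 genes of the comparison table with a mean FPKM of at least 0.5. The +1 understates changes of low genes. The scripts were tested on simulated data. By rule, genes past the threshold, the 2 most abundant per role, and Srebf1, Srebf2, Insig1, Abca1, Apoe and Cyp46a1 are given in full. Idi1, Acat2, Lss, Dhcr7, Lrp1 and Abcg1 are given in full outside this rule. Of related lists, up to 4 genes past the threshold are given. The genes, lists and tests were chosen with earlier results of these data known. Exon overlaps and lengths are from GENCODE M21, and sequence copies were found with BLAST 2.17.0 (at least 90% identity over 300 bases). Promoters and miR-33 are from RefSeq, which had no promoter for Clu, Fdft1, Sqle, Fdps, Abcg1 or Stard4. A gene of a related list is not reported here. The alternatives were 17 other settings, given in the closing section.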

Additional observations from a re-analysis of the deposited data

How the results depend on the processing

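Apod, Abca1 and Srebf2 kept their direction under all 17 alternatives, and their calls under those of pseudocount, filter, scaling, trend, gene table, library weights and voom and without each tMCAO library; calls lost without a Sham library are given with each gene. With library weights, 4 of the genes rose (Abca1, Clu, Apod and Acat2) and 7 fell (Nsdhl, Mvk, Dhcr7, Idi1, Hmgcs1, Sqle and Srebf2). Over all genes, 2681 rose and 2232 fell with these weights, 28% of those tested. Scaling to equal sums of FPKM gave 2 lower genes, adding Idi1 (adjusted p = 0.041), and over all genes 1048 higher and 1584 lower in place of 1569 and 1278, with the median of all genes moved to -0.06. Leaving out 1 library gave 0 to 4 higher and 0 to 4 lower cholesterol genes, and 58 to 2174 higher and 17 to 1722 lower over all genes.

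Genes near 0 changed sign. The log2 fold change of Apoe became -0.07 with equal sums, -0.0031 with median ratios, -0.16 with quantile normalization and -0.0022 with voom, and lay between -0.09 and 0.15 when 1 library was left out. Srebf1 was at 0.07 with library weights and between -0.12 and 0.04 when 1 library was left out, Insig1 between -0.07 and 0.30 and Cyp46a1 between -0.21 and 0.08. The cause was not tested. Of 424 single-gene values under alternatives, 349 kept direction and side of the threshold, 49 lost a call, 13 gained one and 13 changed sign. No paired analysis was possible because the tMCAO columns name the group only and the sample titles share no number between groups. The 12 to 321 reads of Ch25h and 33 to 97 of Fdps limit what can be said of them.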
